A study of Mus musculus with 12 samples.

Results

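The genes followed here, picked by symbol, are those whose transcripts are commonly read as hallmarks of senescence in the nucleus and the lysosome: the lamin genes Lmnb1, Lmnb2 and Lmna, the high mobility group genes Hmgb1, Hmgb2, Hmga1 and Hmga2, the histone gene H2afx, the lysosomal gene Glb1 and the proliferation gene Mki67. They are 10 of the 52550 genes in the files, and all 10 passed the filter on low counts that left 16823 genes for testing. RNA was sequenced from D2A1 and D2.OR, a pair of mouse mammary tumor cell lines that were established from different tumors of the D2 hyperplastic alveolar nodule line, so that each stands for 1 tumor. Cells of both lines grew either on plastic (2D) or on top of growth-factor-reduced Matrigel (3D, the Matrigel on Top assay). No group carried a named deletion. The 3D medium of the study held hydrocortisone, cholera toxin and insulin beside horse serum, and whether both cultures of the sequenced cells had the same medium is not plain from the methods, so that medium and culture cannot be told apart. D2A1 is known as a line that keeps growing in this 3D assay and D2.OR as one that stays dormant. Each of the 4 groups (D2A1 2D, D2A1 3D, D2.OR 2D and D2.OR 3D) had 3 replicates, numbered as batches 1, 2 and 3, which gave 12 libraries. RNA of several wells was pooled. The study describes its repeats in general as biological, and the labels give only a replicate and batch number, so that the p-values measure the spread between these libraries, which may be partly technical.

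Senescence is a lasting exit from the cell cycle. In senescent cells the nuclear lamina loses its B-type lamin, the chromatin proteins Hmgb1 and Hmgb2 leave the nucleus or are lost, Hmga proteins gather in condensed chromatin, H2AX is phosphorylated at DNA breaks, and lysosomes build up with more acid beta-galactosidase, the product of Glb1. The transcripts carry only part of this: the files hold RNA levels, and neither H2AX phosphorylation, protein location nor enzyme activity was measured in them. The direction usually described for senescence is lower Lmnb1, Hmgb1, Hmgb2 and Mki67 and higher Glb1, Hmga1 and Hmga2, and no direction was set for Lmna, Lmnb2 and H2afx.

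The libraries held 47589611 to 73325069 expected counts (median 61747126). Levels are given as TPM, the share of transcripts that a gene takes after normalization for gene length and depth. Fold changes come from edgeR's quasi-likelihood test with a batch term, with p-values adjusted by the Benjamini-Hochberg method over all 16823 genes, and a change was called at an adjusted p under 0.05. Of the epithelial markers, Krt18 was present in both lines, while Krt8 stood at 0.78 to 2.31 TPM in D2A1 against 227 to 1022 TPM in D2.OR, and Epcam and Cdh1 stayed under 1 TPM in every D2A1 library. Krt19 and Elf5 were under 1 TPM in every library. The 7 luminal markers summed to 1173 to 1725 TPM in D2.OR 2D and 424 to 888 TPM in D2.OR 3D. The 7 fibroblast and mesenchyme markers summed to 815 to 2580 TPM in D2A1 2D and 1089 to 3174 TPM in D2A1 3D. In D2.OR they summed to 4815 to 6487 TPM in 2D and 3416 to 7292 TPM in 3D, with Thy1 under 1 TPM in every library. All 5 endothelial markers were under 1 TPM in every library. Of 7 macrophage and leukocyte markers, 5 were under 1 TPM in every library (Ptprc, Adgre1, Csf1r, Itgam and Lyz2), and the list summed to 40.4 to 192 TPM in D2A1 3D and 12.7 to 72.8 TPM in the other groups, from Cd14 and Cd68. The 4 adipocyte markers summed to 59.3 to 480 TPM in D2.OR 3D against 4.44 to 26.9 TPM in D2.OR 2D. In D2.OR 3D the sum came mostly from Fabp4 (50.9 to 403 TPM) and Plin1 (6.33 to 75.0 TPM), while Adipoq and Lep were at most 2.03 and 1.96 TPM. Their part in the results was not tested. 1 library stood apart among the genes described here. In D2A1 2D the batch 1 library had the highest level of its group for Lmnb1, Lmnb2, Hmgb1, Hmgb2 and Mki67, whereas in the other groups the batch 1 library had the lowest level of each of these genes. For the 10 genes, calls that were gained or lost without that library are given both ways, and for the gene lists most counts without it are given. The library was picked out by the levels of these same genes, so the adjusted p-values of fits without it are no separate support for a difference.

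The 250 bases before the RefSeq start are shown for Mki67, Hmgb2 and Hmgb1, which were higher in every D2A1 3D library than in any D2A1 2D library, and for Glb1, which was lower (GRCm38.p6, read on the strand of the gene). Lmnb1, Lmnb2 and Lmna were also higher in this way and are not shown, and the windows shown were picked with the matches known. Capitals mark CCAAT boxes (CCAAT or its reverse complement ATTGG), the cell cycle homology element of genes that peak in G2 and M (TTTGAA or TTCGAA, with TTCAAA as the reverse complement of the first) and, in Glb1, the palindrome CACGTG that basic helix-loop-helix factors bind.
Mki67, chr7:135716380-135716629, minus strand: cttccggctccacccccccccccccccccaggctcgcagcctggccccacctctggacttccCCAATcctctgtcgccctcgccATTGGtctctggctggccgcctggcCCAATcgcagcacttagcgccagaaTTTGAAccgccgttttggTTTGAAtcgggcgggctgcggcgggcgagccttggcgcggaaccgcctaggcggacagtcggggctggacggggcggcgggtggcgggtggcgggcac
Hmgb2, chr8:57511593-57511842, plus strand: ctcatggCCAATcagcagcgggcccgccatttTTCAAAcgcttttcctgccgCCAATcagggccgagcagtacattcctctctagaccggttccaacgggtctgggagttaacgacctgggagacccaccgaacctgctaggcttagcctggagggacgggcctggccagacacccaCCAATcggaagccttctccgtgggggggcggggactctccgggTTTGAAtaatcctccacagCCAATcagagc
Hmgb1, chr5:149053058-149053307, minus strand: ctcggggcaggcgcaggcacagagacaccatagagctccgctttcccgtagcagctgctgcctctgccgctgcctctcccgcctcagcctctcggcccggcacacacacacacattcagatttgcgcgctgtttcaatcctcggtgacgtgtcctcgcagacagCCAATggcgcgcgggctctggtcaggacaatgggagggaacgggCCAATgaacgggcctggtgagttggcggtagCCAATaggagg
Glb1, chr9:114400828-114401077, plus strand: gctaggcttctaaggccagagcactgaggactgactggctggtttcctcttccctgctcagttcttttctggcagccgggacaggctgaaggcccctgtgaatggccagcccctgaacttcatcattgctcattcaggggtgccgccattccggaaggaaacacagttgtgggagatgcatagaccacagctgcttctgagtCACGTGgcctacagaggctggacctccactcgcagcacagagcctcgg
The Mki67 window held 3 CCAAT boxes, at 188, 166 and 141 bases before the start, and the element TTTGAA at 116 and 98 bases. Hmgb2 held 4 CCAAT boxes, at 243, 198, 73 and 11 bases, with TTCAAA at 218 and TTTGAA at 30 bases. Hmgb1 held 3 CCAAT boxes, at 86, 42 and 11 bases, and no cell cycle homology element in this window. Its second RefSeq window, chr5:149051617-149051866, held CACGTG at 69 bases and no CCAAT box. The Glb1 window held CACGTG at 48 bases before the start and none of the other letters. Of the windows not shown, 1 of the 2 of Lmna held a CCAAT box, at 131 bases, and those of Lmnb2, Hmga1 and Hmga2 held none of these words. No capital word overlapped another. Of 32851 RefSeq promoter windows of the same length, 33.8% held a CCAAT box, 17.1% a cell cycle homology element and 6.02% CACGTG on either strand. The matches describe the letters only. RefSeq windows were matched for 8 of the 10 genes.

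Lmnb1, which encodes the B-type lamin whose loss marks senescent nuclei (chromosome 18), was highest in D2A1 3D. Its level was 71.3, 34.8 and 31.6 TPM in batches 1, 2 and 3 of D2A1 2D, and 81.3, 92.8 and 105 TPM in D2A1 3D. The groups did not overlap, although the batch 1 library on plastic lay close to the 3D cultures. In D2.OR the level was 26.5, 43.4 and 58.8 TPM in 2D and 44.55, 69.6 and 63.0 TPM in 3D, and these groups overlapped. Lmnb1 was 2.17-fold higher in D2A1 3D than in D2A1 2D by edgeR's fit (log2 1.12, 95% interval 0.28 to 1.96), which missed the threshold at an adjusted p of 0.0858. Without the batch 1 library of D2A1 2D the difference was 1.82 on the log2 scale (adjusted p = 0.00056). In D2.OR the 3D minus 2D difference was 0.43 (interval -0.39 to 1.26, adjusted p = 0.573). That interval holds 0 and the D2A1 difference of 1.12, and not the 1.82 found without the batch 1 library of D2A1 2D. Lmnb1 was not lower in 3D than in 2D in any D2.OR batch, where the differences were 0.61, 0.66 and 0.09.

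Lmnb2, the second B-type lamin (chr10:80901203-80918245, minus strand), had lower levels than Lmnb1 with the same order of libraries in D2A1. It stood at 18.2, 13.8 and 11.01 TPM in D2A1 2D and at 20.3, 22.6 and 24.4 TPM in D2A1 3D. In D2.OR it ranged from 9.41 to 18.8 TPM in 2D and from 14.7 to 17.5 TPM in 3D, so that the cultures overlapped. The D2A1 difference was 0.71 on the log2 scale (SE 0.25, adjusted p = 0.0998), and 1.08 without the batch 1 library of D2A1 2D (adjusted p = 0.00533).

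Lmna, which encodes the A-type lamins A and C (chr3:88480147-88509956, minus strand), was the most abundant lamin and varied least between replicates. Its level was 481, 516 and 462 TPM in D2A1 2D and 634, 675 and 672 TPM in D2A1 3D. Every D2A1 3D library lay above all other libraries. In D2.OR the levels were 471, 471 and 519.6 TPM in 2D and 512, 524 and 509 TPM in 3D, without a gap between the cultures. Lmna rose 1.48-fold in D2A1 3D (log2 0.57, SE 0.09, adjusted p = 0.0282), in 3 of 3 batches. This call held in 11 of 22 alternative analyses, with an adjusted p of 9.99e-09 to 0.538. In 3D, Lmna was lower in D2.OR than in D2A1 (log2 -0.35, SE 0.09, adjusted p = 0.00968), a call that held in 20 of 22 alternatives. In 2D the lines were at 487 ± 28.0 and 486.4 ± 27.4 TPM (SD, n = 3), while the fitted difference of normalized counts was 0.22 (adjusted p = 0.0721). On the log2(TPM + 1) scale that difference was 0.003, with D2.OR below D2A1 in batches 1 and 2 (471 against 481 and 471 against 516 TPM), and over all genes tested the median shift between the scales was -0.12 for this comparison. The mean transcript length of Lmna that RSEM gave, weighted by isoform, was 2197 bases in D2A1 2D and 2316 bases in D2.OR 2D.

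**Figure D1:**
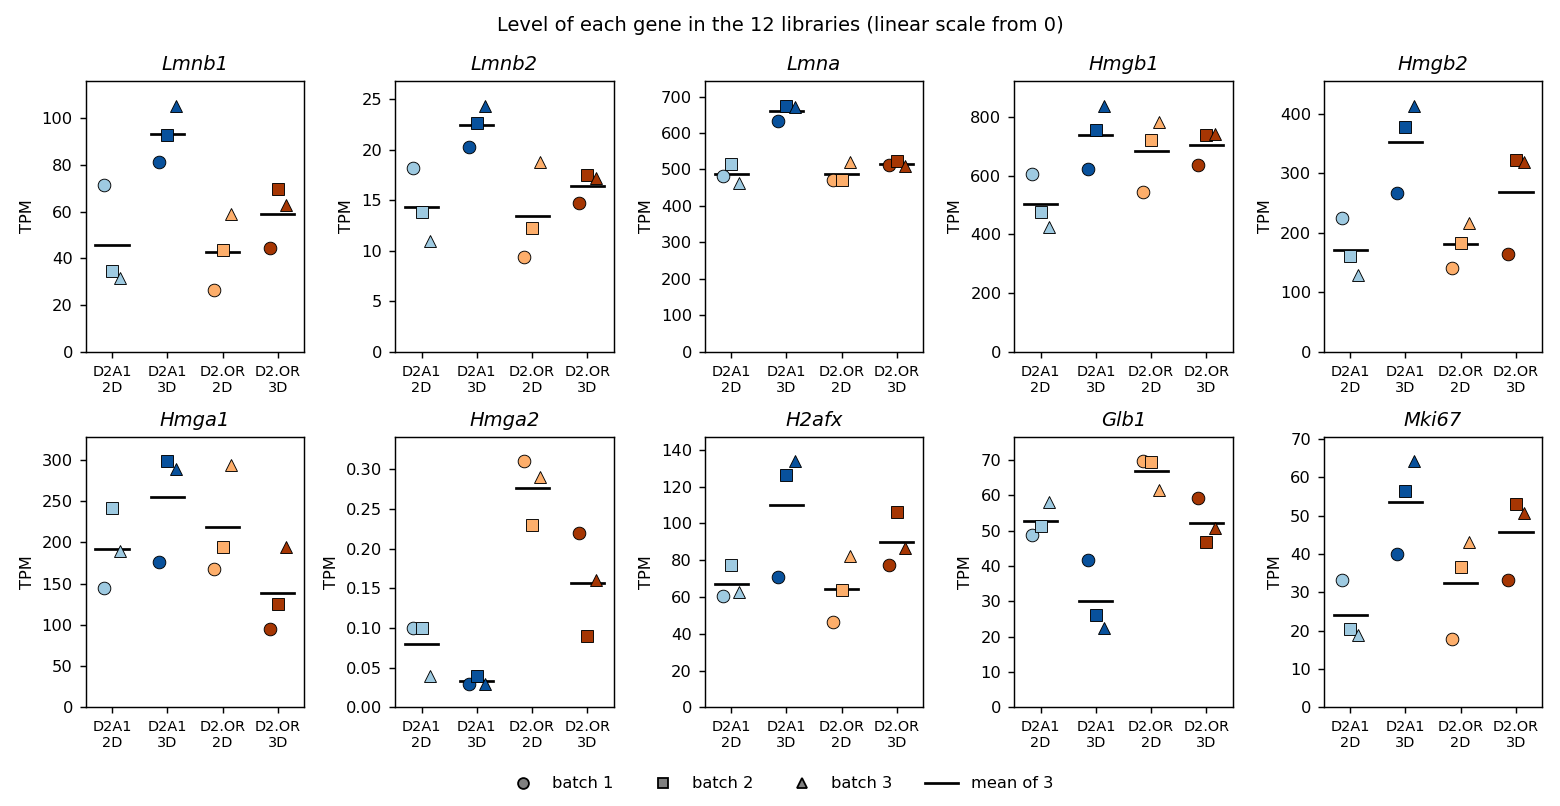
Level in TPM (vertical axis, linear from 0) of each of the 10 genes in the 12 libraries, grouped by line and culture on the horizontal axis, with 1 point for each library shaped by batch and a line at the mean of 3. Every D2A1 3D library lies above all other libraries for Lmna, the batch 1 library of D2A1 2D lies above its group for Lmnb1 at 71.3 TPM, and Glb1 is lowest in D2A1 3D.

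Hmgb1 and Hmgb2 encode abundant chromatin proteins that bend DNA, and Hmgb1 also acts as an alarm signal once it leaves the cell. Hmgb1 (chr5:149046702-149184489, minus strand) had the highest mean of the 10 genes, 658 TPM, which ranked 211 of 52550. It stood at 607, 477 and 427 TPM in D2A1 2D, at 624, 755 and 839 TPM in D2A1 3D, at 546, 722 and 783 TPM in D2.OR 2D and at 638, 737 and 744 TPM in D2.OR 3D. The D2A1 2D libraries of batches 2 and 3 were the lowest of the 12. Hmgb1 was higher in D2.OR than in D2A1 on plastic (log2 0.59, SE 0.18, adjusted p = 0.025), with within-batch differences of 0.06, 0.74 and 1.05. That call held in 13 of 22 alternatives and was lost, for example, on the log2(TPM + 1) scale (adjusted p = 0.0669). It was 0.89 without the batch 1 library of D2A1 2D (adjusted p = 0.000249). Between the D2A1 cultures the groups did not overlap, and the difference was 0.60 (SE 0.18, adjusted p = 0.0748), or 0.89 without that library (adjusted p = 0.000977). In 3D the lines differed by -0.01 (interval -0.42 to 0.40). In D2.OR, 3D and 2D differed by -0.00 (interval -0.42 to 0.41), so that a drop of more than 0.42 on the log2 scale lay outside the interval. The files list 12 further genes whose names start with Hmgb1, and its expected count was whole in 0 of 12 libraries, so part of its level depends on how RSEM divided shared reads. The same holds for Hmgb2, Hmga1, H2afx and Glb1, also whole in 0 of 12.

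Hmgb2 (chr8:57511907-57515999, plus strand) was less abundant and more variable. Its level was 225, 162 and 129 TPM in D2A1 2D and 267, 378 and 414 TPM in D2A1 3D, and these groups did not overlap. In D2.OR it was 142, 183 and 217 TPM in 2D and 164, 322 and 319 TPM in 3D, where the batch 1 library on Matrigel lay inside the range of the plastic cultures. The D2A1 difference was 1.08 (SE 0.32, adjusted p = 0.0682), and 1.61 without the batch 1 library of D2A1 2D (adjusted p = 0.00101). The D2.OR difference was 0.52 (interval -0.18 to 1.21, adjusted p = 0.423), with batches at 0.09, 0.86 and 0.50.

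Hmga1 encodes an AT-hook protein that is abundant in proliferating and embryonic cells and is also found in senescent heterochromatin (chr17:27556620-27563674, plus strand). Its differences between the cultures ran in opposite directions in the lines. Its level was 145, 241 and 189.7 TPM in D2A1 2D and 177, 298 and 289 TPM in D2A1 3D. In D2.OR it was 168, 195 and 293 TPM in 2D and 95.4, 125 and 194 TPM in 3D. The cultures overlapped in each line when the batches were mixed. Within batches D2A1 was higher in 3D by 0.33, 0.46 and 0.74, and D2.OR was lower in 3D by 0.94, 0.68 and 0.60 on the log2 scale. The fitted D2.OR difference was -0.74 (SE 0.19, adjusted p = 0.091 by edgeR and 0.0111 by the DESeq2 likelihood-ratio test). Between the lines in 3D, Hmga1 was lower in D2.OR at 0.52 of the D2A1 level (log2 -0.94, SE 0.19, adjusted p = 0.00258), a call that held in 22 of 22 alternatives. Hmga1 was also the 1 gene of the 10 that differed between batches, by 0.59 in batch 2 and 0.81 in batch 3 relative to batch 1 (adjusted p = 0.0399), where 6.58% of all genes tested were called. The files also list the near-identical Hmga1b, and reads could be split between them.

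Hmga2, the related AT-hook gene that is mostly fetal and a classical target of the let-7 microRNAs (chr10:120361275-120476469, minus strand), was close to absent. It ranked 17569 of 52550, with 5 to 49 expected counts in a library. Its level was 0.10, 0.10 and 0.04 TPM in D2A1 2D, 0.03, 0.04 and 0.03 TPM in D2A1 3D, 0.31, 0.23 and 0.29 TPM in D2.OR 2D and 0.22, 0.09 and 0.16 TPM in D2.OR 3D. Lines did not overlap on plastic or on Matrigel. Hmga2 was higher in D2.OR by 1.94 on the log2 scale in 2D (SE 0.40, adjusted p = 0.00342) and by 2.02 in 3D (SE 0.43, adjusted p = 0.00365), and these calls held in 21 and 22 of 22 alternatives. Within D2.OR it was lower in 3D by 0.92 (SE 0.37), which did not pass the threshold (adjusted p = 0.237).

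H2afx encodes the histone variant H2AX, which is phosphorylated around DNA breaks (chr9:44334694-44336077, plus strand). It stood at 60.8, 77.2 and 62.6 TPM in D2A1 2D, at 70.8, 126 and 134 TPM in D2A1 3D, at 46.2, 64.0 and 82.5 TPM in D2.OR 2D and at 77.2, 106 and 86.7 TPM in D2.OR 3D. The cultures overlapped in both lines. The D2A1 difference of 0.79 (SE 0.18) had an adjusted p of 0.0505, and it was 0.95 without the batch 1 library of D2A1 2D (adjusted p = 0.00719). In D2.OR the difference was 0.45 (SE 0.18, adjusted p = 0.236), and it was positive in 3 of 3 batches. The lines did not pass the test in either culture, with differences of 0.04 in 2D and -0.29 in 3D.

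Glb1, which encodes the lysosomal acid beta-galactosidase behind the usual senescence stain (chr9:114401076-114474898, plus strand), had its highest levels in D2.OR and was lower in 3D than in 2D in every batch of both lines. Its level was 48.8, 51.2 and 58.0 TPM in D2A1 2D and 41.6, 26.1 and 22.3 TPM in D2A1 3D. In D2.OR it was 69.6, 69.3 and 61.6 TPM in 2D and 59.1, 46.7 and 50.6 TPM in 3D. Neither pair of cultures overlapped, and neither did the lines within a culture. Glb1 fell in D2A1 3D to 0.598 of the 2D level (log2 -0.74, SE 0.17, adjusted p = 0.048), a call close to the threshold that held in 8 of 22 alternatives and was lost, for example, without the batch term (adjusted p = 0.0764). In D2.OR the difference was -0.42 (SE 0.16, adjusted p = 0.231). D2.OR was above D2A1 by 0.47 in 2D (SE 0.16, adjusted p = 0.0396) and by 0.79 in 3D (SE 0.17, adjusted p = 0.00331). The 2D call held in 10 of 22 alternatives and the 3D call in 21 of 22. The 2D difference was 0.32 without the batch 1 library of D2A1 2D, and the call was lost (adjusted p = 0.13). The line difference in 3D minus that in 2D was 0.32 (interval -0.20 to 0.85, adjusted p = 0.48).

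Mki67 encodes the Ki-67 protein that coats mitotic chromosomes and is made only in cycling cells (chr7:135689784-135716361, minus strand). Its level was 33.2, 20.5 and 18.8 TPM in D2A1 2D and 40.0, 56.35 and 64.2 TPM in D2A1 3D. These groups did not overlap. In D2.OR it was 17.8, 36.6 and 43.1 TPM in 2D and 33.2, 53.0 and 50.8 TPM in 3D, with overlap. Bulk RNA cannot tell fewer cycling cells from less Mki67 RNA in each cycling cell. The D2A1 difference was 1.16 (SE 0.34, adjusted p = 0.0687), and 1.80 without the batch 1 library of D2A1 2D (adjusted p = 0.000417). The D2.OR difference was 0.47 (interval -0.28 to 1.22, adjusted p = 0.497), and 3 of 3 batches were higher in 3D. Between the lines in 3D the difference was -0.28 (interval -1.03 to 0.47, adjusted p = 0.496).

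**Figure D2:**
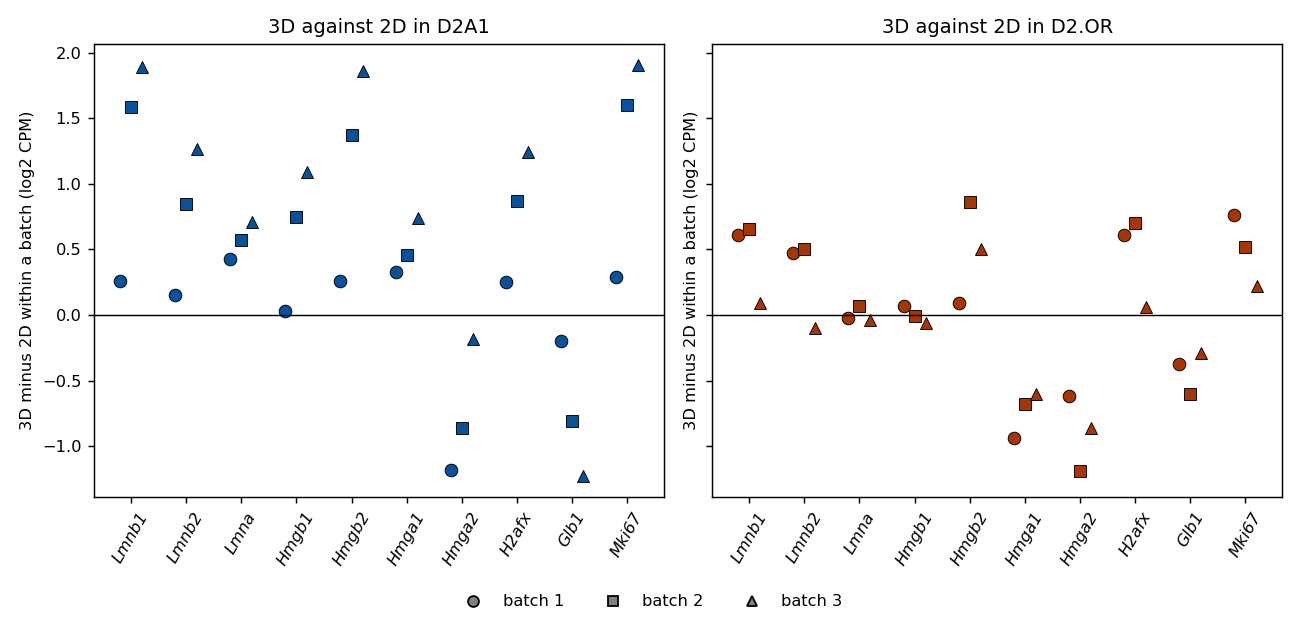
Difference between 3D and 2D libraries of the same batch for each gene (vertical axis, log2 CPM, that is depth-normalized counts, with a prior count of 2), with D2A1 on the left, D2.OR on the right and 1 point for each batch. In D2A1 the batch 1 points lie near 0 for Lmnb1 (0.26), Hmgb1 (0.03) and Mki67 (0.29) and far below those of batches 2 and 3, and Hmga1 lies above 0 in D2A1 and below 0 in D2.OR in all batches.

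The comparison of the lines asked how a dormancy-prone and a proliferative tumor differ in these transcripts. On plastic, 3 of the 10 genes were called, Hmgb1, Hmga2 and Glb1, all higher in D2.OR, against 49.8% of all genes tested. In 3D, 4 were called, Hmga2 and Glb1 higher and Lmna and Hmga1 lower in D2.OR, against 53.8% of all genes. Both shares are below the background. The counts depended on single libraries. Without the batch 1 library of D2A1 2D, 6 genes were called in 2D (51.2% of all genes) and 7 in 3D (59.5% of all genes). On plastic 1 gene was called without the batch 2 library of D2A1 2D, and also without the batch 2 or the batch 3 library of D2.OR 2D. The genes gained on plastic without that batch 1 library were Lmnb1 (0.68, adjusted p = 0.00882), Lmna (0.25, adjusted p = 0.0467), Hmgb2 (0.68, adjusted p = 0.0148) and Mki67 (1.02, adjusted p = 0.00053), all higher in D2.OR, where the full fit gave 0.01 for Lmnb1 and 0.41 for Mki67. In 3D that fit gave -0.70 for Lmnb1 (adjusted p = 0.0031), -0.49 for Lmnb2 (adjusted p = 0.0304) and -0.46 for Hmgb2 (adjusted p = 0.0313), where the full fit gave -0.67, -0.49 and -0.44 (adjusted p = 0.145, 0.126 and 0.256).

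The comparison of cultures asked which transcripts differed in the setting where D2.OR is described as dormant. In D2A1, Lmna rose and Glb1 fell, 2 of 10 genes against 3.48% of all genes. 9 of the 10 genes had an unadjusted p under 0.05, with Hmga2 as the exception, beside 31.4% of all genes. The count of 2 was 1 without the batch term, 0 with only the 6 D2A1 libraries, and 0 without batch 2, without batch 3 or without any single library of either batch in either line. The DESeq2 likelihood-ratio test called 8 of 10 (23.1% of all genes), and edgeR without the batch 1 library of D2A1 2D also called 8 (30.3% of all genes), in which Lmnb1, Lmnb2, Lmna, Hmgb1, Hmgb2, H2afx and Mki67 were higher and Glb1 lower in 3D. Over 22 alternatives, this comparison called Lmnb1, Lmnb2, Hmgb1 and Hmgb2 in 3 each, Mki67 in 4 and H2afx in 7. In D2.OR edgeR called 0 of 10 genes, against 1.62% of all genes. The unadjusted p was under 0.05 for 4 of 10, Hmga1, Hmga2, H2afx and Glb1, beside 17.6% of all genes. Limma on log2(TPM + 1) called 0 (1.69% of all genes) and the DESeq2 test called 1, Hmga1 (adjusted p = 0.0111, 7.26% of all genes).

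**Figure D3:**
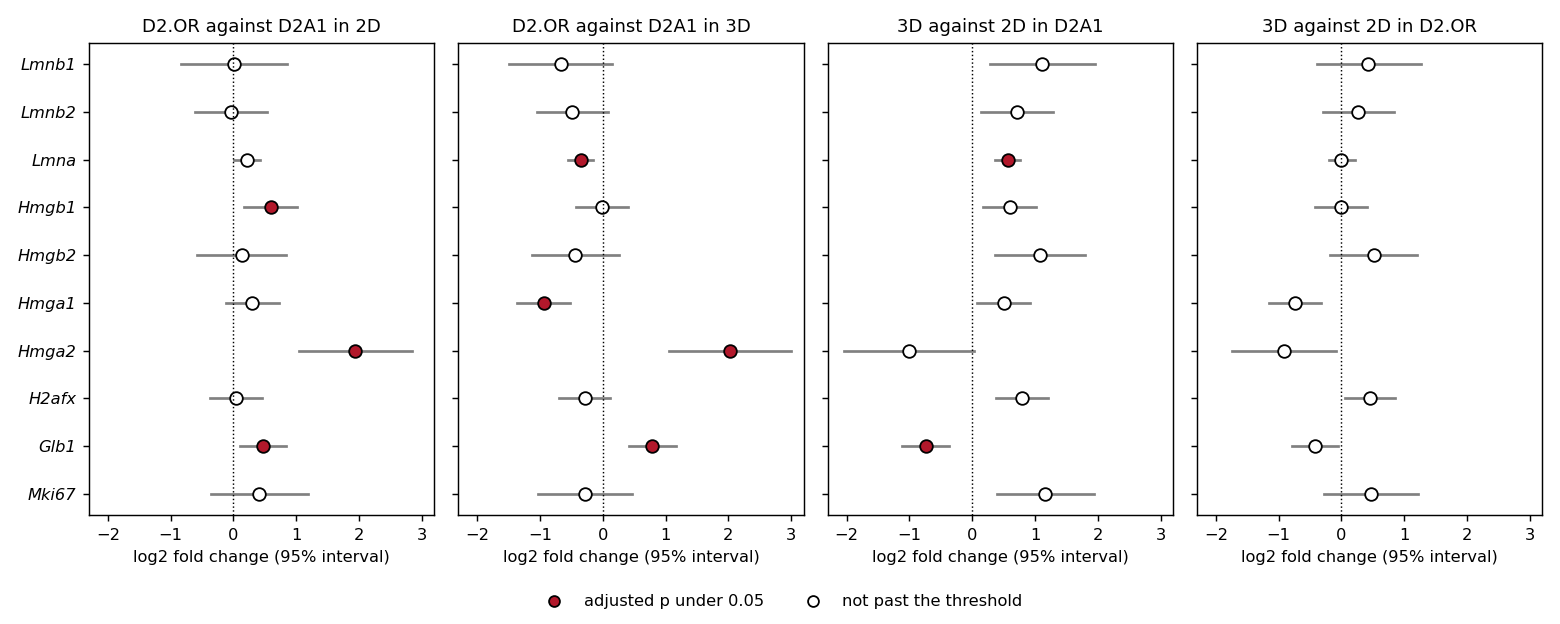
Fitted log2 fold change (horizontal axis) of each gene with its 95% interval in 4 comparisons, filled where the adjusted p was under 0.05. In D2.OR no point is filled for 3D against 2D, and in D2A1 the filled points are Lmna at 0.57 and Glb1 at -0.74.

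Whether culture acted differently in the 2 lines was tested by the interaction of line and culture. It called 0 of the 10 genes by edgeR, against 0.0238% of all genes. An unadjusted p under 0.05, which 17.8% of all genes had, was found for 3 of 10: Hmga1 (-1.24, SE 0.26, adjusted p = 0.105), Lmna (-0.57, SE 0.13, adjusted p = 0.11) and Hmgb1 (-0.60, SE 0.26, adjusted p = 0.273). The DESeq2 likelihood-ratio test called Hmga1 and Lmna (5.96% of all genes). Without the batch 1 library of D2A1 2D edgeR called 6 genes (14.5% of all genes), in all of which the 3D minus 2D difference was lower in D2.OR than in D2A1: Lmnb1 (-1.38), Lmna (-0.60), Hmgb1 (-0.90), Hmgb2 (-1.14), Hmga1 (-1.28) and Mki67 (-1.31). D2A1 2D then holds the 2 libraries of batches 2 and 3.

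Set against the usual senescence direction, 1 of the 7 genes with a set direction lay that way in D2.OR 3D against 2D, Hmgb1 at -0.00 (not called), and the other 6 lay the other way. That value of Hmgb1 changed sign in 7 of 22 alternatives, which leaves 0 of 7. In D2A1 3D against 2D it was also 1 of 7, Hmga1 (not called), and Glb1 was called in the opposite direction (-0.74). D2.OR compared with D2A1 lay in that direction for 3 of 7 genes in 2D, of which Hmga2 and Glb1 were called, while Hmgb1 was called in the opposite direction (0.59) and Lmnb1, counted as opposite at 0.01, changed sign in 8 of 22 alternatives. In 3D it did so for 6 of 7 genes, again with Hmga2 and Glb1 called, and Hmga1 was called in the opposite direction. Of the called genes, Hmga2 was close to absent, with 5 to 49 expected counts in a library. The 6 include Hmgb1 at -0.01 (adjusted p = 0.971), which changed sign in 7 of 22 alternatives. These comparisons share libraries, so their counts are not independent of each other.

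Shares within a gene pair do not depend on the scaling between libraries. B-type lamins made up 15.7%, 8.61% and 8.45% of lamin TPM in D2A1 2D, 13.8%, 14.6% and 16.2% in D2A1 3D, 7.08%, 10.6% and 13.0% in D2.OR 2D and 10.4%, 14.2% and 13.6% in D2.OR 3D. The share was higher in 3D in 3 of 3 batches of D2.OR, by 3.30, 3.69 and 0.625 percentage points, and in 2 of 3 batches of D2A1, where batch 1 was lower by 1.88 points. Hmgb2 made up 25.2% ± 1.94 of Hmgb1 and Hmgb2 TPM in D2A1 2D and 32.1% ± 1.86 in D2A1 3D, compared with 20.9% ± 0.79 in D2.OR 2D and 27.0% ± 5.62 in D2.OR 3D (SD, n = 3 in each group). The Hmgb2 share did not overlap between the D2A1 cultures. Hmga2 was at most 0.230% of Hmga TPM in any library. Within batches, D2.OR minus D2A1 was -6.43, -5.12 and -1.42 percentage points in 2D and -9.51, -2.96 and -3.01 in 3D for the Hmgb2 share. For the B-type share it was -8.61, 1.94 and 4.54 in 2D and -3.43, -0.361 and -2.55 in 3D. By the two-sided exact permutation test, which did not use the batches, no share passed the threshold, since 3 libraries against 3 cannot give a p below 0.1, and the smallest adjusted p over the 12 comparisons was 0.24.

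**Figure D4:**
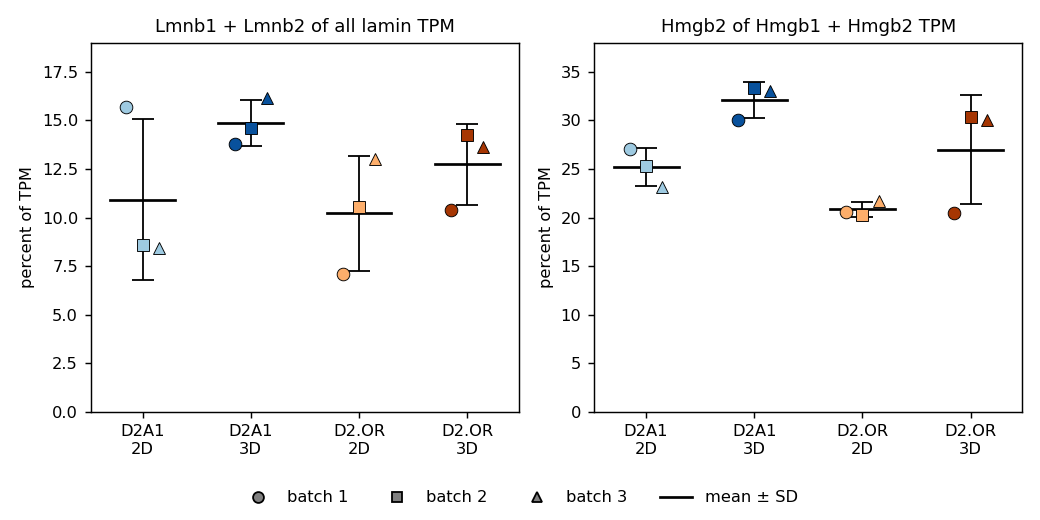
Share in percent (vertical axis, linear from 0) of B-type lamin in all lamin TPM on the left and of Hmgb2 in Hmgb1 and Hmgb2 TPM on the right, by group, with 1 point for each library shaped by batch and the mean with SD of 3. The B-type share of the batch 1 library of D2A1 2D, at 15.7%, lies with the D2A1 3D libraries, and the Hmgb2 share is 20.9% on average in D2.OR 2D with little spread.

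The genes around the lamina were read from 18 genes of the nuclear envelope and lamin processing. In D2.OR against D2A1 on plastic, 8 were higher and 1 lower, and in 3D 7 were higher and 5 lower. On plastic that is 9 of 18 genes, near the 49.8% of all genes, and in 3D 12 of 18 beside 53.8%. The counts of the other lists in edgeR's fit to all libraries are to be read beside the same shares, and those for 3D against 2D beside 3.48% in D2A1 and 1.62% in D2.OR, or beside 31.4% and 17.6% where the unadjusted p was counted. Culture counts by the DESeq2 test go with 23.1% in D2A1 and 7.26% in D2.OR. Counts without the batch 1 library of D2A1 2D go with 30.3% for culture of D2A1. Between the lines they go with 51.2% in 2D and 59.5% in 3D. None of the list calls for culture of D2A1 remained in edgeR's fit without the D2A1 2D library of batch 2 or the D2A1 3D library of batch 2 or 3, where 0 of all genes were called and 3522, 3234 and 2984 had an unadjusted p under 0.05. Zmpste24, the protease that matures prelamin A, was lower in D2.OR, at 23.2 ± 1.88 TPM against 45.4 ± 3.52 TPM in 2D (log2 -0.84, adjusted p = 0.000299). Tmem43, an inner nuclear membrane protein that binds emerin, was higher by 0.69 (adjusted p = 0.000176), and Tor1aip1, the lamina-associated protein LAP1, by 1.05 (adjusted p = 0.000427). The 5 that were lower in 3D were Lbr, Emd, Banf1, Ankle2 and Zmpste24. In D2A1 3D against 2D 2 were higher and 0 lower, and 10 of 18 had an unadjusted p under 0.05 (31.4% of all genes). Nrm, an envelope protein, rose by 0.92 (adjusted p = 0.0359) and Emd, the gene of emerin, by 0.56. In D2.OR 0 were higher and 1 was lower with 3D culture, Tor1aip2 (-0.61, adjusted p = 0.0223). That call held in 14 of 22 alternatives and was lost without batch 2 (adjusted p = 0.525), batch 3 (0.327), the block (0.163), the D2A1 3D library of batch 2 (0.05003) or any D2.OR library of batch 2 or 3 (0.103 to 0.141). Leaving out the batch 1 library of D2A1 2D gave 7 higher and 5 lower with 3D culture of D2A1 (30.3% of all genes). Between the lines it gave 10 of 18 in 2D (51.2% of all genes) and 13 in 3D (59.5%).

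Among 7 further high mobility group genes, 2 were higher and 1 lower in D2.OR on plastic. Hmgn3, a nucleosome-binding protein, was at 29.6, 25.2 and 19.5 TPM in D2.OR 2D and at 0.09, 0.0 and 0.0 TPM in D2A1 2D, and was at least 231-fold higher against a floor of 3 counts for each library. Hmg20b was higher by 1.01 (adjusted p = 7.95e-05) and Hmgn1 lower by -0.49 (adjusted p = 0.0109). With 3D culture 0 of the 7 were called in either line by edgeR, where 4 in D2A1 and 2 in D2.OR had an unadjusted p under 0.05. The DESeq2 test called 3 in D2A1 (23.1% of all genes) and 2 in D2.OR (7.26%). Without the batch 1 library of D2A1 2D edgeR called 4 in D2A1, 3 higher and 1 lower (30.3% of all genes). Between the lines it then called 5 in 2D (51.2% of all genes) and 6 in 3D (59.5%). Hmgn2 differed by 0.93 in D2A1 (adjusted p = 0.0594). In 3D Hmgn3 and Hmg20b were higher in D2.OR and Hmgb3 and Hmgn1 lower. Of 11 heterochromatin factors, 4 were higher (Asf1a, Cabin1, Cbx5 and H2afy) and 4 lower (Ubn1, Cbx1, Cbx3 and Suv39h2) in D2.OR on plastic. In 3D 1 was higher, Cabin1, and 5 were lower, Hira, Cbx1, Cbx3, Suv39h1 and Suv39h2. Cabin1, a subunit of the HIRA histone chaperone complex, was higher by 0.86 (adjusted p = 5.79e-05), while its partner Ubn1 (-0.47, adjusted p = 0.00233) and the heterochromatin protein gene Cbx1 (-0.36, adjusted p = 0.0054) were lower. Cbx3 differed by 0.39 in D2A1 3D (adjusted p = 0.0594). Without that batch 1 library, 7 of 11 were called with 3D culture of D2A1, all higher (30.3% of all genes). Between the lines 7 were called in each culture, with Suv39h2 lost on plastic (51.2% of all genes in 2D and 59.5% in 3D).

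Around Hmga2, 8 genes of the let-7 pathway and the Igf2bp family of RNA-binding proteins were listed and 7 were tested. In D2.OR on plastic 2 were higher and 0 lower, Lin28b and Trim71, and in 3D these and Igf2bp3 were higher and Igf2bp1 and Drosha lower. Lin28b, which blocks let-7 maturation, was at 2.33, 2.05 and 2.17 TPM in D2.OR 2D and at 0.0, 0.01 and 0.0 TPM in D2A1 2D, at least 127-fold higher against the same floor. In 3D it was at least 140-fold higher. Trim71, a let-7 target, was at least 44.8-fold higher on plastic. Lin28a was at 0 to 0.01 TPM in all libraries. Dicer1 did not pass the test (0.23, adjusted p = 0.0579), nor did Igf2bp3 with 3D culture of D2A1 (-2.17, adjusted p = 0.0513). Of the 3 Hmgb1 receptors, Ager was higher in D2.OR on plastic (0.79, adjusted p = 0.0418) from a low level of 1.18 ± 0.38 TPM in D2A1, and Tlr4 (-0.35) and Tlr2 (-0.16) did not pass the test. In 3D Ager was higher by 0.78 and Tlr2 lower by -0.58. The call of Ager on plastic was lost without the batch 1 library of D2A1 2D, where Tlr4 was called as lower. In that fit 4 of the 7 let-7 and Igf2bp genes were called with 3D culture of D2A1, 3 higher and 1 lower (30.3% of all genes). Between the lines 3 were called in 2D (51.2% of all genes) and 5 in 3D (59.5%).

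Of 16 genes of H2A variants and DNA break signalling, 0 were higher and 6 lower in D2.OR on plastic, and 0 were higher and 11 lower in 3D, with medians of -0.34 and -0.58 on the log2 scale beside -0.003 and 0.001 over all genes. Trp53bp1, which binds chromatin at breaks, was at 24.9 ± 5.32 TPM in D2.OR 2D against 42.2 ± 1.08 TPM in D2A1 2D (-0.77, adjusted p = 0.00018). The repair kinase Prkdc (-0.65, adjusted p = 0.000565) and the checkpoint kinase Chek2 (-0.67, adjusted p = 0.00753) were also lower. With 3D culture 2 of the 16 were called in D2A1, both higher, the H2A variant H2afj (0.63, adjusted p = 0.0422) and the break mediator Mdc1 (0.71), and 0 in D2.OR by edgeR, where 3 had an unadjusted p under 0.05 and the DESeq2 test called 2 (7.26% of all genes). The batch 1 library of D2A1 2D bears on these counts. Without it 4 were higher and 4 lower in D2.OR on plastic (51.2% of all genes), and 0 higher and 12 lower in 3D (59.5%). In that fit 11 were higher and 0 lower with 3D culture of D2A1 (30.3% of all genes), with 2 called in D2.OR.

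The lysosomal list held 26 glycosidases, Glb1 partners and lysosomal regulators, of which 25 were tested. With 3D culture of D2A1, 0 were higher and 9 lower, with a median of -0.49 beside 0.004 over all genes, and 18 of 25 had an unadjusted p under 0.05 (31.4% of all genes). All 9 calls, Hexa's among them, were lost without the D2A1 2D library of batch 2 or the D2A1 3D library of batch 2 or 3. Hexa, the alpha subunit of beta-hexosaminidase, fell from 115 ± 10.52 to 55.4 ± 28.1 TPM (log2 -1.08, adjusted p = 0.0329), in 3 of 3 batches. In D2.OR 0 were called by edgeR, with a median of -0.15 and 2 at an unadjusted p under 0.05. Between the lines on plastic, 4 were higher (Man2b1, Manba, Fuca1 and Lamp1) and 6 lower in D2.OR, and single enzymes differed widely in both directions. Gaa, the acid alpha-glucosidase, was at 44.1 ± 3.55 TPM in D2.OR and 216 ± 18.8 TPM in D2A1 (-2.18, adjusted p = 3.73e-06), and Naglu was lower by -1.66 (adjusted p = 0.000245). Man2b1, the lysosomal alpha-mannosidase, was at 213 ± 19.6 TPM in D2.OR and 60.3 ± 4.84 TPM in D2A1 (1.98, adjusted p = 9.45e-06). Without the batch 1 library of D2A1 2D, 17 of 25 were lower with 3D culture of D2A1 and 0 higher (30.3% of all genes). On plastic 3 were then higher and 8 lower in D2.OR, with Manba and Fuca1 lost (51.2% of all genes). In 3D 13 were higher in D2.OR and 5 lower (Gaa, Galc, Naglu, Tfe3 and Mitf), both with that library (53.8% of all genes) and without it (59.5%).

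Of 16 proliferation genes besides Mki67, 1 was lower in D2.OR on plastic, Mcm2, a subunit of the replicative helicase (-1.20, adjusted p = 0.000763). E2f1 (-0.35) and Aurka (-0.52) did not pass the test there. In 3D 11 of the 16 were lower in D2.OR and 0 higher, with a median of -0.94, among them Mcm2 (-1.19), E2f1 (-0.63), Aurka (-1.21) and Cenpa (-1.40), while Mki67 itself did not pass the test. With 3D culture of D2A1 0 passed the adjusted threshold by edgeR, while 16 of 16 had an unadjusted p under 0.05 (31.4% of all genes) and a positive difference, with a median of 1.04. The DESeq2 test called 15 of the 16 (23.1% of all genes) and edgeR without the batch 1 library of D2A1 2D called 16 (30.3%), all higher. In that fit 7 were higher and 1 lower in D2.OR on plastic (51.2% of all genes), and 16 were lower in 3D (59.5%). Cenpa, the centromeric histone, differed by 1.07 (adjusted p = 0.0544). In D2.OR 16 of 16 also had a positive difference with 3D culture. There 0 were called, 1 had an unadjusted p under 0.05, and the median was 0.29.

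The interaction of line and culture called 0 genes of any of these lists in edgeR's fit to all libraries. An unadjusted p under 0.05 was found for 6 of the 18 envelope genes, 2 of the 7 high mobility group genes, 5 of the 11 heterochromatin factors, 3 of the 16 genes of H2A variants and break signalling, 11 of the 25 lysosomal genes, 4 of the 7 let-7 and Igf2bp genes, 1 of the 16 proliferation genes and 0 of the 3 receptors, beside 17.8% of all genes. The DESeq2 test called 2 envelope genes (Emd and Sun2), 2 of break signalling (Trp53bp1 and Rad50), 2 lysosomal genes (Hexa and Naglu) and 0 of the other lists, beside 5.96%. Without the batch 1 library of D2A1 2D edgeR called 6, 4, 3, 8, 10, 3, 13 and 0 genes of these lists in the order above, beside 14.5% of all genes. Those 13 proliferation genes were lower and those 10 lysosomal genes higher in the D2.OR culture difference than in that of D2A1.

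The genes whose log2 CPM followed those of single members most closely over the 12 libraries were picked out of 16822 as a description, and the points share line, culture and batch. For Lmnb1 they were Tk1 (Pearson r = 0.99), Uhrf1 (0.99) and Fanci (0.987), and for Mki67 Neil3 (0.994), Mcm5 (0.991) and Mtfr2 (0.989). For Glb1 they were Tns2 (0.978), Dctn4 (0.977) and Sdcbp (0.972). For Hmga2 they were Adgrg2 (0.965), Gm13264 (0.959) and Ammecr1l (0.958).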

How the data were processed

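The labels and the study's methods describe total RNA from 12 libraries, 3 for each line and culture, extracted with the Nucleospin kit and sequenced on an Illumina platform. The authors checked reads with FastQC 0.11.4, trimmed them with Trimmomatic 0.32, aligned them with STAR 2.5.3 to GRCm38 with a GENCODE annotation and quantified genes with RSEM 1.3.0. The deposited expected count of a gene is an RSEM estimate that need not be whole, since reads that fit several genes are divided between them. The authors also deposited TPM values from RSEM, which no longer show the depth. The FPKM column was left out.

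Expected counts were rounded (10.7% to 11.8% of the genes of a library were not whole) and tested with edgeR 4.0.16 in R 4.3.3: library sizes scaled by TMM, genes with few counts removed by filterByExpr, group and batch as terms, 1 fit of all 12 libraries, Benjamini-Hochberg adjustment, threshold 0.05. Standard errors were taken from the quasi-likelihood F. The common biological coefficient of variation was 21.2%, and precision was further limited by 3 libraries in a group. The batch block follows the study's own model. As a check of the pairing, deviations from the group means correlated at 0.076 to 0.511 (median 0.267) over 18 pairs of the same batch and at -0.432 to 0.296 (median -0.195) over 36 pairs of different batches. Shares of TPM were tested by exact permutation. Alternatives were DESeq2 1.42.0 (likelihood-ratio test, or its size factors in edgeR), limma 3.58.1 on log2(TPM + 1) and log2(TPM + 0.1), no filter, no block, the 6 libraries of a comparison alone, and leaving out each library and each batch. The scripts were tested on simulated data. Every member was tested in every comparison, and some differences that were not called are not given in the text. Of each gene list, the 3 genes with the smallest p between the lines in 2D and the 1 with the smallest p for culture in D2A1 were named, and the 3 most like genes of 4 members. Where a list's count was 5 or fewer, genes outside that rule were named after their values were seen. Members, lists and tests were chosen with earlier results of these data known.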

Additional observations from a re-analysis of the deposited data

Results flagged for a closer look

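For 2 genes, the effect of one factor on normalized counts (log2 CPM) ran in opposite directions at the levels of the other in every batch. Hmga1 was higher in 3D than in 2D in all 3 batches of D2A1 (0.33, 0.46 and 0.74 on the log2 scale) and lower in all 3 batches of D2.OR (-0.94, -0.68 and -0.60), and the difference between the lines in the effect of culture was -1.24 (edgeR, adjusted p = 0.105; DESeq2 likelihood-ratio test, adjusted p = 0.00269). Lmna was higher in D2.OR than in D2A1 in all 3 batches on plastic (0.19, 0.11 and 0.36) and lower in all 3 in 3D (-0.27, -0.38 and -0.39), and the difference between the cultures was -0.57 (edgeR, adjusted p = 0.11; DESeq2, adjusted p = 0.000419). Neither difference passed the threshold in edgeR's fit to all libraries. Without the batch 1 library of D2A1 2D the values were -1.28 (adjusted p = 0.0276) and -0.60 (adjusted p = 0.0171). The opposite directions of Lmna in every batch hold for normalized counts and not for TPM: on plastic D2.OR was at 471, 471 and 519.6 TPM and D2A1 at 481, 516 and 462 TPM, so that D2.OR was lower in batches 1 and 2. On the log2(TPM + 1) scale the lines differed by 0.003 on plastic and the difference between the cultures was -0.36 (limma, adjusted p = 0.166).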

How the results depend on the processing

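Over 1089 values of 50 gene and comparison pairs in the alternative analyses, 928 kept the direction and the side of the threshold, 50 lost the call, 57 gained one and 54 changed sign. The full fit called 3 and 4 of the 10 genes between the lines in 2D and 3D, 2 with culture of D2A1 and 0 otherwise. Only those pairs could lose a call, so most of the 928 were uncalled values that stayed uncalled. None of the values that changed sign had been called. On the log2(TPM + 1) and log2(TPM + 0.1) scales D2.OR against D2A1 in 2D turned to -0.071 and -0.072 for Lmnb1 and to -0.088 and -0.090 for H2afx, the D2.OR culture effect of Hmgb1 to 0.060 in both, and the interaction of Hmga2 to -0.080 and -0.165. Without the replicate block, which the labels' batch numbers pair, Lmnb2 was 0.001 in 2D. Hmgb1 in 3D was 0.013 by DESeq2 (test and size factors) and 0.001 with only the 6 libraries, which gave 0.015 for its D2.OR culture effect. Without the filter the D2.OR culture effect of Lmna was -0.024.

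Leaving out a library or batch gave these ranges. D2.OR against D2A1 in 2D was -0.454 to 0.765 for Lmnb1, -0.477 to 0.386 for Lmnb2, -0.208 to 0.677 for Hmgb2 and -0.197 to 0.214 for H2afx, and in 3D -0.130 to 0.086 for Hmgb1. The D2.OR culture effect was -0.049 to 0.028 for Lmna and -0.101 to 0.071 for Hmgb1. The interaction was -0.870 to 0.003 for Lmnb2, -0.303 to 0.413 for Hmga2 and -0.674 to 0.085 for H2afx. The B-type lamin share differed between the lines in 2D by -3.33 to 3.24 percentage points, and the Hmga2 share between D2.OR cultures by -0.0313 to 0.0145.

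The number of the 10 genes called moved as follows. D2.OR against D2A1 in 2D gave 1 with limma at either pseudocount and 1 to 6 on leaving out a library or batch, and in 3D 8 with only the 6 libraries and 2 to 7. 3D against 2D in D2A1 gave 1 without the replicate block, 8 by DESeq2, 4 without the filter, 0 with only the 6 libraries, and 0 to 8: 8 without batch 1 or its D2A1 2D library, 3 without its D2A1 3D library, 1 without either of its D2.OR libraries, and 0 without any other library or batch. In D2.OR it gave 1 by DESeq2, 1 with only the 6 libraries and 0 to 1. The interaction gave 2 by DESeq2 and 0 to 6, with 6 without batch 1 or its D2A1 2D library. Batches gave 2 by DESeq2 and 0 by limma on log2(TPM + 1).

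Over all genes, D2.OR against D2A1 called 4227 to 9062 in 2D and 5273 to 10298 in 3D on leaving out a library or batch, 7936 and 8277 in 2D by limma at pseudocounts of 1 and 0.1, of which 3252 and 3460 were higher in D2.OR (4275 of 8378 by edgeR), and 9255 in 3D with only the 6 libraries. 3D against 2D in D2A1 called 52 without the block (586 with it), 3512 by DESeq2, 1117 without the filter, 1135 by limma on log2(TPM + 0.1), 15 with only the 6 libraries and 0 to 6120. In D2.OR it called 20 without the block (273 with it), 1174, 415 and 809 by DESeq2, without the filter and with only the 6 libraries, and 0 to 1412. The interaction called 0 without the block (4 with it; 2231 genes at an unadjusted p under 0.05), 944 by DESeq2, 96 without the filter, 13 and 9 by limma at pseudocounts of 1 and 0.1, and 0 to 2999. Batches gave 2535 by DESeq2 and 680 by limma on log2(TPM + 1). The cause of these moves was not tested. Hmga2 had 5 to 49 expected counts in a library, the lowest of the 10 genes, and standard errors of 0.37 to 0.46 between groups, beside 0.36 to 0.37 for Lmnb1.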
